A study of Mus musculus with 24 samples.

Results

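Freshly collected mutant reticulocytes were compared with wild-type reticulocytes on 8 of the 24 mouse bead arrays of the series, namely the 5 arrays titled as mutant and the 3 titled as wild type at 0 h, before any culture. Both groups came from adult male mice of the C57BL/6J strain, and the labelled cell type was reticulocyte. The design text describes blood rich in reticulocytes that was kept ex vivo and sampled again at 12 and 24 h, and it calls the arrays of a group biological replicates. The labels name neither the mutated gene nor its allele, so no targeted gene was available as a check on them, and the sources used here do not say how the blood was enriched for reticulocytes.

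A reticulocyte is a red cell in the last stage of its maturation. It has already expelled its nucleus, so its messenger RNA is what the erythroblast left behind, and that pool shrinks while globin and heme are still being made. Autophagy, the ubiquitin and proteasome system and the shedding of vesicles remove mitochondria, ribosomes and surface receptors such as the transferrin receptor.

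The arrays differed in yield and in background before any gene was considered. A probe was called above background where its detection p, the share of negative-control beads at or above its signal, was below 0.01. By this measure 4.62, 2.17 and 3.58% of the 25697 probes were above background on the 3 wild-type arrays, and 3.60, 6.34, 10.5, 12.0 and 17% on mutant arrays 1 to 5. Mutant array 1 thus lay within the wild-type range and the other 4 lay above it. The means were 3.46% ± 1.23 (SD, n = 3) and 9.89% ± 5.20 (SD, n = 5), a difference of 6.43 percentage points that did not pass (exact two-sided permutation p = 0.0714, where 0.0357 is the smallest p that 3 arrays against 5 can give). With detection called at a p below 0.05 the difference was 9.42 points (exact permutation p = 0.0357).

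The median raw signal over all probes, which mostly reflects background, was 132, 281 and 298 on the wild-type arrays and 278, 235, 162, 139 and 169 on the mutant arrays. The 16 later arrays had medians of only 38.7 to 44.7. On the log2 scale the 0 h groups averaged 7.80 ± 0.658 (SD, n = 3) and 7.57 ± 0.413 (SD, n = 5), and this difference did not pass (exact permutation p = 0.607). The largest gap in these medians separated a high class (wild-type arrays 2 and 3, mutant arrays 1 and 2) from a low class (wild-type array 1, mutant arrays 3, 4 and 5). Both classes thus held both genotypes, but the low class held only 1 wild-type array. Over the tested genes, normalized values correlated at 0.811 to 0.864 among wild-type arrays, at 0.781 to 0.979 among mutant arrays, where arrays 3, 4 and 5 reached at least 0.971, and at 0.521 to 0.799 between the genotypes. In a bulk sample fewer cells of a type and less RNA per cell cannot be told apart, so neither yield nor level gives an amount per cell.

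**Figure D1:**
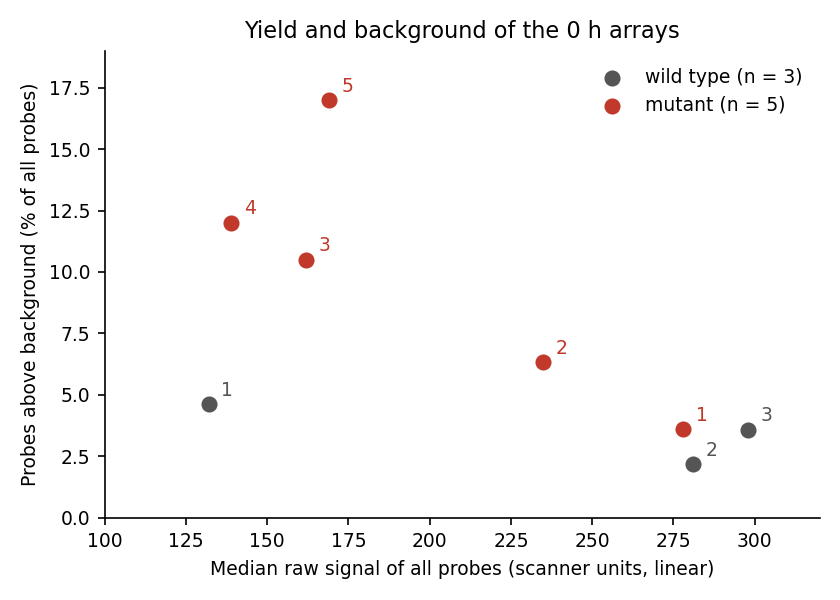
Share of probes above background (vertical axis, percent of all probes) against the median raw signal (horizontal axis, linear scanner units) for each 0 h array, with the replicate number beside each point. Mutant arrays 3, 4 and 5 combine the highest shares (10.5 to 17%) with low medians, whereas wild-type arrays 2 and 3 have the highest medians (281 and 298) and shares of 2.17 and 3.58%.

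Red cell RNA was clearly present in both groups. Of 9 red cell markers with a probe, alpha-globin Hba-a1, the heme enzyme Alas2 and the anion exchanger Slc4a1 were above background on all 8 arrays. Kel, a blood group antigen, and the transferrin receptor Tfrc were above background on 1 of 3 wild-type and 5 of 5 mutant arrays, and Rhag on 1 mutant array. The membrane skeleton genes Epb42, Sptb and Ank1 were above background on no array of either group.

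Most genes that differed were higher in mutant reticulocytes, but the direction followed how well a gene could be seen in wild type. A linear model was fitted with limma to log2 intensities of the 2230 genes whose probe was above background on at least 3 of the 8 arrays. At a Benjamini-Hochberg adjusted p below 0.05, 981 genes (44% of those tested) differed, 800 of them higher (35.9%) and 181 lower (8.12%) in mutant. The median difference, mutant minus wild type, was 0.73 log2 units over all tested genes. The 2 groups of arrays did not overlap for 794 genes (35.6%), and 713 of these were among the called genes, 583 higher and 130 lower. Centring the arrays on their medians in place of quantile normalization raised the median difference to 1.31 and gave 1161 higher and 17 lower genes, and the authors' processed values gave 792 and 26. Leaving out wild-type array 2 or 3 brought the count of 981 to 570 or 615, and leaving out mutant array 3, 4 or 5 brought it to 546, 547 or 552.

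Of the tested genes, 1318 were above background on no wild-type array, and 630 of them were higher and 0 lower, since a gene that passed the filter through the mutant arrays alone could hardly fall. Among the 237 genes above background on all 3 wild-type arrays the split turned, with 41 higher, 122 lower and a median of -0.95. Selection works in the opposite direction here, because a gene seen on every wild-type array but on few mutant arrays had to be lower. For 188 of these 237 genes the probe was above background on all 8 arrays. They too are chosen mostly by brightness in wild type, since the dimmest level that cleared background was 6.668 to 7.403 log2 units on the wild-type arrays and 5.636 to 5.974 on mutant arrays 3 to 5. In the fit over all tested genes 117 of them were called, 41 higher and 76 lower, with a median of -0.35. Fitted on their own, 130 of the 188 (69.1%) were called, 43 higher (22.9%) and 87 lower (46.3%).

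**Figure D2:**
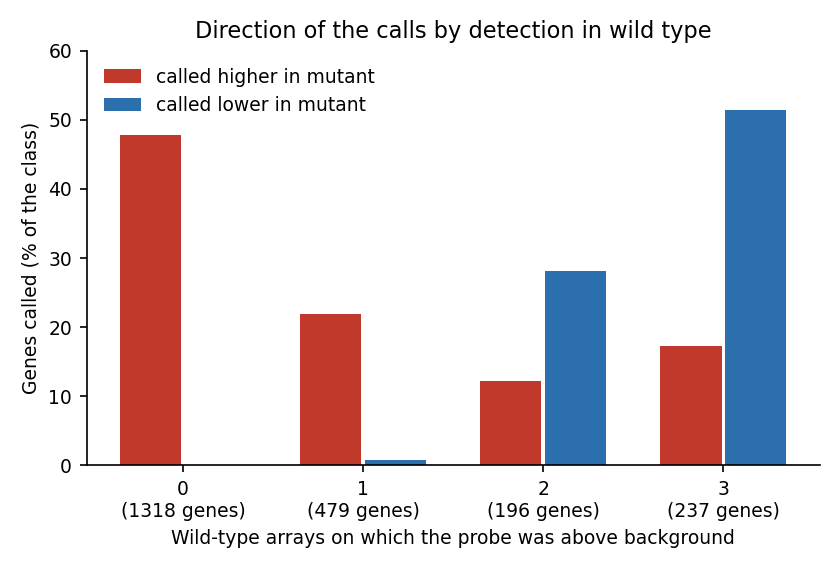
Percentage of tested genes called higher or lower in mutant (limma, adjusted p below 0.05), by the number of wild-type arrays on which the probe was above background. Genes above background on none of the 3 arrays gave 630 higher and 0 lower calls, and genes above background on all 3 gave 41 higher and 122 lower calls.

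Paqr9, Ncoa4 and Ube2o had the largest falls, and Ube2o was the one of the 3 that stayed above background on every array. Ube2o, a ubiquitin-conjugating enzyme that marks ribosomal proteins for destruction in reticulocytes, read 13.62, 13.47 and 13.12 log2 units on the wild-type arrays and 9.77, 9.43, 9.46, 9.03 and 9.04 on the mutant arrays. Every mutant array lay more than 3 log2 units below every wild-type array, and all 8 were above background. Its difference was -4.06 ± 0.24 (SE, limma adjusted p = 1.8e-11), with -4.05 on the high-background arrays and -4.06 on the low-background arrays. Isca1, a factor for assembling iron-sulfur clusters, read 13.47, 13.62 and 13.76 in wild type and 10.56, 10.60, 10.55, 10.71 and 10.36 in mutant. The groups stood far apart and neither spread by more than 0.4 log2 units, giving a difference of -3.06 ± 0.17 (SE, adjusted p = 7.3e-12).

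Ncoa4, the cargo receptor that delivers ferritin to autophagosomes so that its iron can be used, read 10.25, 10.05 and 9.80 in wild type and 5.53, 4.87, 5.99, 5.59 and 5.50 in mutant. Only 1 of the 5 mutant arrays was above background, so the fitted difference of -4.54 ± 0.42 (adjusted p = 5.0e-08) measures a fall to about the background level. The membrane protein Paqr9 behaved in the same manner, at 10.07, 10.09 and 10.02 in wild type and 4.83 to 6.02 in mutant, where 1 of 5 arrays was above background (-4.64 ± 0.42, adjusted p = 4.0e-08). The other Paqr9 probe gave a much smaller fall of -1.21. Gclm, which modifies the glutamate-cysteine ligase of glutathione synthesis, fell by 3.29 (SE 0.42) and was seen on 3 of 5 mutant arrays. With the authors' processed values, which had no quantile step, the falls of Ncoa4, Paqr9 and Gclm were -1.83, -1.89 and -1.19 and still passed.

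Further falls came from genes of varied function, all above background on every wild-type array. Gnas, which encodes the stimulatory G protein alpha subunit, fell by 2.94 (SE 0.38), and its other probe gave -2.45. Sh3glb1, a membrane-curving protein of autophagy and mitochondria, fell by 2.69 (SE 0.34), a call that the authors' processed values ended (-1.17, adjusted p = 0.052). The interferon-induced antiviral enzyme Rsad2 fell by 2.46 (SE 0.20) from one of the highest levels measured, 13.68 to 13.76, to 10.64 to 11.70. It was the only 1 lower of 12 tested interferon-induced genes, of which 7 were higher, where 35.9% of all tested genes were higher. For 5 of the 12 the probe was above background on no wild-type array. Anp32e, a histone chaperone, and Nusap1, a spindle protein, fell by 3.27 and 2.93 and were above background on 3 of 5 mutant arrays each. Tmem256, a small transmembrane protein, and Fam117a fell by 3.00 and 2.65, the latter call being lost under median centring (-1.11, adjusted p = 0.12). Ubb-ps, a ubiquitin B pseudogene name on the array, fell by 2.06 ± 0.11, and its other probe gave -2.10. Its sequence is nearly shared with the polyubiquitin genes, so the gene behind the signal is uncertain.

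Srp14, Lyz1 and Hnrnpm had the largest rises among called genes whose groups did not overlap and whose probe was above background throughout 1 group. Srp14, which helps the signal recognition particle hold back translation, was above background on no wild-type array (5.70, 4.91 and 4.68 log2 units) and on all mutant arrays (10.91, 10.83, 10.26, 10.48 and 10.11). Its groups were separated by more than 4 log2 units. Where a probe was not above background anywhere in a group, only a lower bound on its fold can be given. The dim group then takes, array by array, whichever is higher of the dimmest signal that still cleared background and the signal of the probe itself. Srp14 was at least 11.6-fold higher by this bound (limma adjusted p = 9.2e-10). For Odc1, which makes putrescine and so opens polyamine synthesis, the bound was 3.73-fold (adjusted p = 7.85e-06), and Hspa8, the constitutive heat shock cognate chaperone, was at least 3.59-fold higher (adjusted p = 1.8e-05). The other Hspa8 probe had a fitted difference of 1.68 log2 units, against 3.37 for this one. Hnrnpm, an RNA-binding splicing protein, was 4.09 ± 0.47 log2 units higher (adjusted p = 1.5e-06), with its other probes at 3.06 and 2.49. Lyz1, a lysozyme whose probe cannot be taken as distinct from the close relative Lyz2, was 4.21 ± 0.58 higher. Hnrnpm and Lyz1 were above background on 1 of 3 wild-type arrays, as were the nucleolar protein Npm1 (3.43 ± 0.50) and the cytokine Mif (3.25 ± 0.50). On wild-type arrays 1, 2 and 3 Hnrnpm read 7.41, 4.94 and 5.35, against 9.77 to 10.25 in mutant. Lyz1 read 8.76, 5.64 and 5.39, against 9.94 to 11.86. The fitted sizes of these genes thus rest partly on wild-type values not above background.

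Among named genes above background on all 8 arrays, Eif5 rose with the smallest p. This initiation factor, which triggers GTP hydrolysis on the scanning ribosome, read 10.46, 10.38 and 10.64 in wild type and 13.76, 13.62, 13.53, 13.76 and 13.42 in mutant. The groups were nearly 3 log2 units apart at their closest, and the difference was 3.13 ± 0.14 (SE, adjusted p = 1.1e-13). The other Eif5 probes gave smaller differences of 1.37 and 1.54. The difference was 3.40 on the high-background and 2.85 on the low-background arrays. Prxl2a, a peroxiredoxin-like protein, rose by 1.65 ± 0.14 (adjusted p = 1.9e-08), and Gpx1, the cytosolic glutathione peroxidase, by 1.38 ± 0.14 (adjusted p = 2.85e-07). Gpx1, like Fth1, Oaz1 and Rpl23 below, lies near the top of the scale, where quantile normalization gives several arrays 1 shared value.

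**Figure D3:**
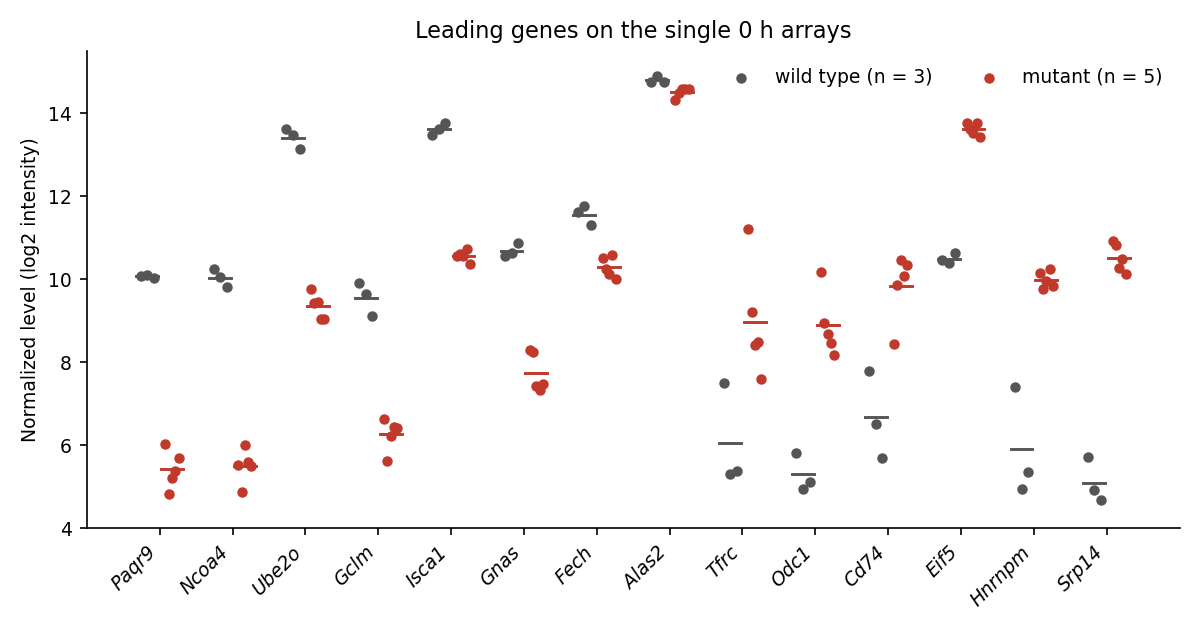
Normalized level (vertical axis, log2 intensity) of 14 genes on each of the 3 wild-type and 5 mutant arrays, with a bar at the group mean. Ube2o, Isca1 and Eif5 separate the groups at levels above background on all 8 arrays, whereas Paqr9, Ncoa4 and Srp14 are near the background level in 1 group.

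Genes of heme synthesis moved in both directions. Of 11 tested, 3 were higher and 3 lower, with a median of 0.65 against 0.73 over all tested genes, of which 35.9% were higher and 8.12% lower. The erythroid enzyme that starts the pathway, Alas2, read 14.76, 14.89 and 14.76 in wild type and 14.31, 14.47, 14.59, 14.59 and 14.59 in mutant. All mutant values lay below all wild-type values by a narrow margin near the top of the intensity scale, and the difference was -0.29 ± 0.07 (adjusted p = 0.0026). The call for Alas2 was lost under median centring (-0.17, adjusted p = 0.23) and with the authors' processed values (-0.37, adjusted p = 0.33). Fech, which inserts iron into the porphyrin ring in the last step, fell by 1.27 ± 0.24 (adjusted p = 0.000445), with another probe at -1.19 and with -1.26 in both background classes, but at 0.03 under median centring. Slc25a38, the mitochondrial carrier that brings in glycine for Alas2, went the other way, at least 1.79-fold higher and above background only in mutant (adjusted p = 0.00079).

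The call for Mpp1 was lost under median centring (-0.83, adjusted p = 0.25) and on the high-background arrays (-1.66, adjusted p = 0.15). The stretch upstream of the start of Alas2 and of Mpp1, a membrane skeleton protein that fell by 2.20 (SE 0.47), is shown because both are red cell genes called lower whose window holds the letters bound by GATA factors. The windows are the 250 bases before the start in RefSeq's GRCm38.p6 table, chrX:150547167-150547416 on the plus strand for Alas2 and chrX:75131017-75131266 on the minus strand for Mpp1, and capitals mark AGATAA or its reverse complement TTATCT.
Alas2: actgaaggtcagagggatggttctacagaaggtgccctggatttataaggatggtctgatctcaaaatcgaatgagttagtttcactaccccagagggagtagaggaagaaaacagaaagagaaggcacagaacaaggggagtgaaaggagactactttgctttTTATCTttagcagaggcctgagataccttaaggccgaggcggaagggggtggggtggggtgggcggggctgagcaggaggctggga
Mpp1: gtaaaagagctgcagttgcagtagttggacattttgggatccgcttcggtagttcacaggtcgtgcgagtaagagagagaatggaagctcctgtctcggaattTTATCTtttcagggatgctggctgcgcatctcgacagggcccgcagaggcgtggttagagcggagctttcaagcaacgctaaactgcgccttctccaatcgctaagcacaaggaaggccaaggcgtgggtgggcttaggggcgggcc
The search covered these bases and the first 50 after the start. Of 1510 tested genes with such a window in the table, 9.21% held the motif on either strand, against 12.7% of all 27025 genes with one. It was in 21 of 121 tested genes called lower (17.4%), 51 of 574 called higher (8.89%) and 67 of 815 not called (8.22%). Among genes above background on all wild-type arrays, leaving out odorant and pheromone receptors, it was in 8 of 79 called lower (10.1%), 3 of 31 called higher (9.68%) and 4 of 48 not called (8.33%). A match to these letters is a description and shows no binding.

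Globins were high on every array. The adult beta-globin Hbb-bt fell by 0.64 ± 0.16 (adjusted p = 0.0039), at 12.77, 12.83 and 12.83 in wild type and 11.75 to 12.52 in mutant. Of the 3 globins tested it was the only one called, and the list's median of -0.64 turned to 0.23 under median centring and to 0.00 with the authors' values. The Hba-a1 probe matches both copies of alpha-globin and lies at the ceiling that quantile normalization imposes, so its value cannot show a difference. Whether the Hbb-bt probe also matches other beta-globin copies was not tested, so the gene behind its signal is uncertain.

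Iron and surface genes moved in both directions. The transferrin receptor Tfrc read 7.50, 5.30 and 5.37 in wild type and 11.20, 9.20, 8.40, 8.48 and 7.60 in mutant. Wild-type array 1 came within 0.1 log2 units of mutant array 5, and mutant array 1 stood far above the rest. The difference was 2.92 ± 0.63 (adjusted p = 0.0013), with the other probe at 3.22, but the low-background arrays gave 0.71 (adjusted p = 0.12), and without wild-type arrays 2 and 3 it was 1.53 (adjusted p = 0.21). Ferritin heavy chain Fth1, the iron store, was 0.43 ± 0.06 higher at 14.47 to 14.54 in wild type and 14.89 to 15.09 in mutant, a call that the authors' values ended (0.41, adjusted p = 0.28). The other Fth1 probe gave 0.24. Of 9 red cell transporters and surface antigens, 4 were higher (2 without wild-type array 3) and 1, Paqr9, lower, against 35.9% and 8.12% of all tested genes. Cd47, the signal that keeps macrophages from engulfing red cells, was called higher (adjusted p = 0.000374) at levels too dim for a fold, and the water channel Aqp1 was at least 1.71-fold higher, both above background only in mutant. The other Aqp1 probe had a fitted difference of 0.88 log2 units, against 2.42 for this one. The anion exchanger Slc4a1 did not pass (-0.33 ± 0.22, adjusted p = 0.21), though without mutant array 1 it did (-0.51, adjusted p = 0.048), and its sign turned under median centring (0.63).

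Protein disposal genes split internally. Of 25 tested proteasome subunits and regulators, 14 were higher and 2 lower (median 1.02), where 35.9% of all tested genes were higher and 8.12% lower. But 19 of the 25 were above background on no wild-type array. Only Psmd4 and Psme3 were above background on all 8 arrays, and these were the 2 that were lower. The 14 rises became 6 or 8 without wild-type array 2 or 3, and 7 of 16 tested without mutant array 3, 4 or 5. Psmd4, the ubiquitin receptor of the regulatory particle, read 11.24, 11.35 and 10.96 in wild type and 8.38 to 8.81 in mutant (-2.59 ± 0.31, adjusted p = 2.8e-06). The activator subunit Psme3 fell by 1.96 ± 0.30. Neither call held under median centring (-1.07 and -0.47) or on the processed values of the authors (-1.07 and -0.65), while the core subunit Psma3, above background only in mutant, was at least 1.75-fold higher. In a list of 7 ubiquitin enzymes known from red cell maturation, 3 rose and 1, Ube2o, fell, with a median of 0.09. The interferon-induced conjugating enzyme Ube2l6, for one, rose by 0.36 ± 0.12 (adjusted p = 0.024), a call lost without wild-type array 1 or without mutant array 3 or 4 (adjusted p = 0.051 to 0.12). The summed linear level of the proteasome list was nevertheless lower in mutant, at 3000 to 3830 against 5510 to 6160 in wild type, and that of the ubiquitin enzymes was 15300 to 20200 against 24000 to 28600. Such sums are carried by the brightest members, here Psmd4 and Psme3 (wild-type means 11.18 and 11.15 log2 units) and Ube2o (13.40). All of these fell, so the sums do not show that most members of either list were lower.

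Mitochondrial respiratory genes split by level much as all tested genes did, of which 35.9% were higher and 8.12% lower. For the 188 tested genes above background on all 8 arrays, 41 were higher and 76 lower (median -0.35). Of 30 tested subunits of complexes II to V, 9 were higher and 4 lower (median 0.67), whereas of the 10 above background on all arrays 0 were higher and 4 lower (median -0.49). Atp5b, the catalytic beta subunit of ATP synthase, fell by 2.15 ± 0.29, and Uqcrh, a subunit of complex III, differed by -1.93 ± 0.29. Under median centring these became -0.69 and -0.51 and did not pass. In complex I, with 6 of 19 higher and 2 lower, the accessory subunit Ndufa1 fell by 3.22 ± 0.39 (adjusted p = 3.1e-06), at 10.15 to 10.74 in wild type and 6.61 to 7.63 in mutant, and kept its call in every alternative that gave it a value. The 6 rises in complex I became 2 or 3 without wild-type array 2 or 3, 10 without wild-type array 1 and 12 without mutant array 1, and the 9 of complexes II to V became 5 without wild-type array 2. Cox14 and Cox5a, an assembly factor and a subunit of cytochrome oxidase, were at least 1.81-fold and 1.96-fold higher.

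The share of autophagy genes called was near that of all tested genes (44%). The autophagy machinery had 9 tested genes, with 3 higher and 1 lower (median 0.26), and the mitophagy regulators 8, with 1 and 1 (median 0.31). Bnip3l, the receptor through which reticulocytes hand mitochondria to autophagosomes, read 14.02, 14.02 and 13.92 in wild type and 13.68, 13.42, 13.62, 14.02 and 13.62 in mutant. The groups overlapped through mutant array 4, and the call (-0.31 ± 0.10, adjusted p = 0.02) did not hold when wild-type array 1, wild-type array 2 or mutant array 2 was left out (adjusted p = 0.054 to 0.11), and its sign turned under median centring (0.30). Tax1bp1, a receptor for ubiquitinated cargo, fell by 2.01 ± 0.37, a call lost under median centring (-0.36). Becn1, part of the kinase complex that starts autophagosomes, and Gabarapl2, an autophagosome protein, were called higher (adjusted p = 0.0014 and 0.0134) and were above background only in mutant, so dimly that no fold can be given. Gabarapl2 lost its call without wild-type array 3 (adjusted p = 0.057). The kinase Ulk1 (0.24 ± 0.48) and the receptor Sqstm1 (0.05 ± 0.52) did not pass, with 1 of 3 wild-type and 3 of 5 mutant arrays above background for each. Map1lc3b, Epb42 and Gata1 were not tested because their probes were above background on no array.

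Of the 32 lists, that of cytosolic ribosomal proteins held the most genes measured in both genotypes, with 37 of 50 tested genes above background on all 8 arrays. Of the 50, 22 were higher and 5 lower (median 0.45), where 35.9% of all tested genes were higher and 8.12% lower. Of the 37, 16 were higher and 5 lower (median 0.34), while of the 188 genes of that kind 41 were higher and 76 lower (median -0.35). The summed linear level of the list ran from 129000 to 175000 in wild type and from 167000 to 193000 in mutant, so the groups overlapped. Rps27 read 10.03, 9.46 and 9.98 in wild type and 11.08 to 11.61 in mutant (1.64 ± 0.24, adjusted p = 2.9e-05). Rps20 was 1.02 ± 0.14 higher and Rpl23 0.87 ± 0.09 higher, whereas Rpl41, at the top of the scale, fell by 0.52 ± 0.07 (adjusted p = 1.0e-05), a call that the authors' values ended (-0.51, adjusted p = 0.19). The other Rpl23 probe gave only 0.25. Many of these genes have processed pseudogenes of near-identical sequence, and probes cannot separate these. Mitochondrial ribosomal proteins were mostly dim: of 26 tested, 20 were above background on no wild-type array, 5 were higher and 0 lower, and when wild-type array 2 or 3, or one of mutant arrays 3 to 5, was left out none was higher, against 2 without wild-type array 1 and 12 without mutant array 1. The 5 falls among cytosolic ribosomal proteins became 3, 2 and 3 without wild-type array 1, wild-type array 3 and mutant array 4.

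Antioxidant genes ran both ways, with 6 of 18 higher and 3 lower, where 35.9% of all tested genes were higher and 8.12% lower. Besides Gpx1, the abundant red cell peroxiredoxin Prdx2 was 0.75 ± 0.09 higher (adjusted p = 3.1e-06), with its other probes at 1.70 and 2.27, and Gclm was lower. Catalase, Cat, did not pass (0.14 ± 0.54), with mutant array 1 at 10.80 and the other mutant arrays at 7.93 to 8.46. Of 9 polyamine and nucleotide enzymes, 7 were higher and 1 lower, the rises becoming 4 without wild-type array 3 and 3 or 4 of 6 tested without mutant array 3, 4 or 5. Oaz1, the antizyme that holds Odc1 down, was 0.94 ± 0.11 higher, and Sat1, which acetylates spermidine for export, at least 1.83-fold higher. Of 8 erythroid transcription factors, 1 was higher (Ldb1, 1.60 ± 0.43) and 1 lower (Lmo2, -0.97 ± 0.38, adjusted p = 0.043). These partners in the erythroid GATA complex both lost their calls when the replicate numbers were a block or the yield a covariate. Without any 1 of wild-type arrays 2 and 3 or mutant arrays 3, 4 and 5, Lmo2 did not pass either (adjusted p = 0.051 to 0.10).

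**Figure D4:**
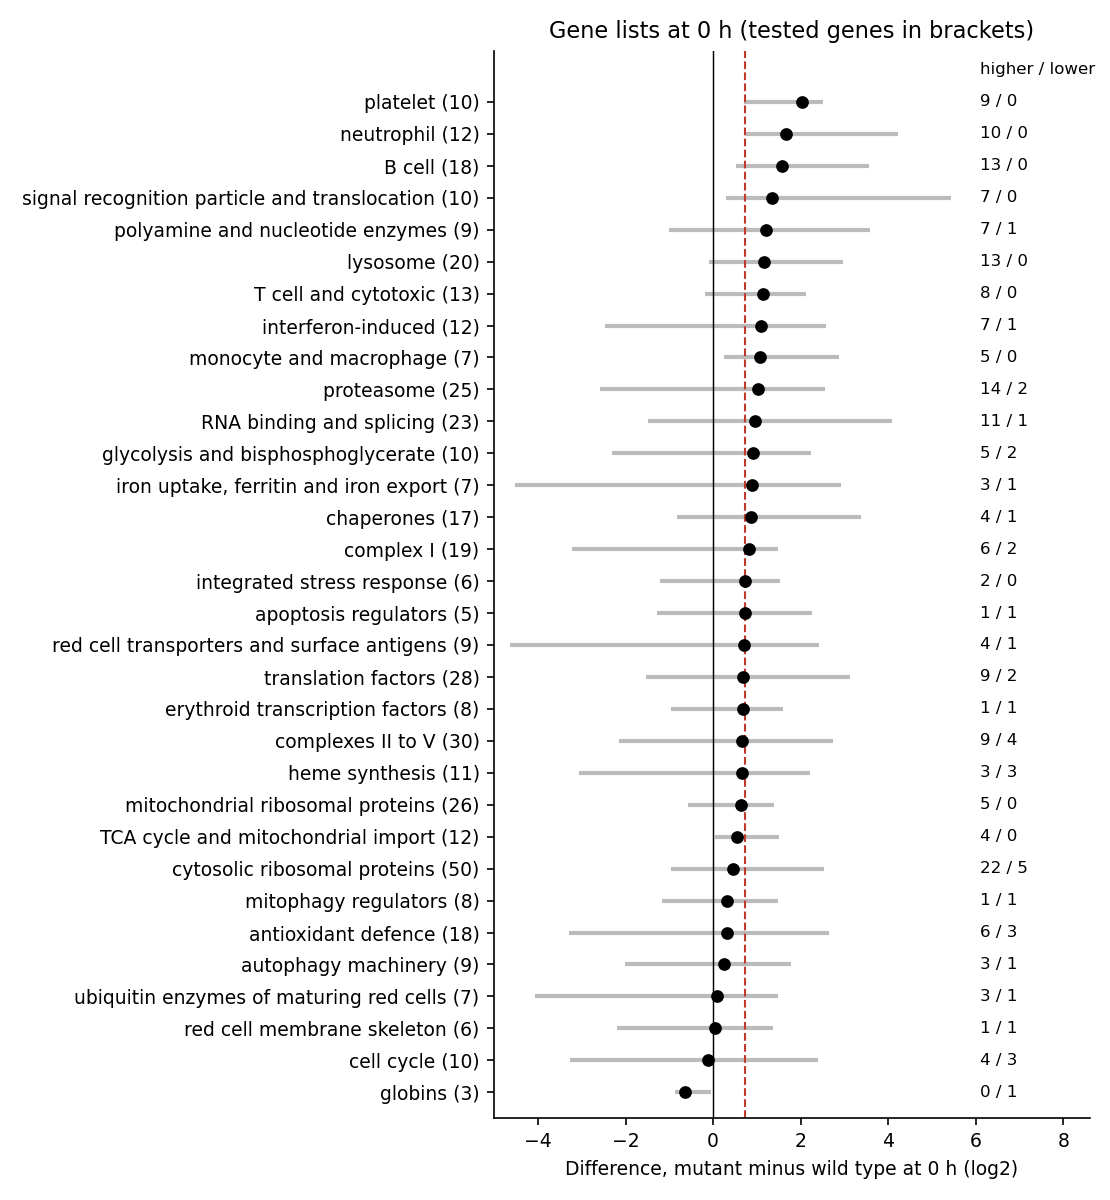
Difference between mutant and wild type at 0 h (horizontal axis, log2) for the tested genes of 32 lists: dots are list medians, grey bars the range over members, the dashed line the median of all tested genes (0.73), and the figures at the right the numbers called higher and lower. Platelet, neutrophil and B cell markers have the highest medians (2.03, 1.66 and 1.57) and globins the lowest (-0.64).

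Many markers of other blood cells were higher in mutant, where 35.9% of all tested genes were higher and 8.12% lower. Of 10 platelet genes tested, 9 were higher and 0 lower (median 2.03), of 12 neutrophil genes 10 and 0 (1.66), of 18 B cell genes 13 and 0 (1.57), of 13 T cell and cytotoxic genes 8 and 0 (1.13) and of 7 monocyte and macrophage genes 5 and 0 (1.08). Their probes were above background on no wild-type array for 7 of the 10 platelet, 8 of the 12 neutrophil, 14 of the 18 B cell, 12 of the 13 T cell and all 7 monocyte genes, which therefore passed the filter through mutant arrays alone and could hardly be lower. Of all 1318 tested genes above background on no wild-type array, 630 were higher. Without the filter on detection 4 of 19 platelet, 4 of 26 neutrophil, 9 of 27 B cell, 1 of 28 T cell and 2 of 23 monocyte genes were higher and 0 lower. Among all 16590 genes without the filter, 284 were higher and 125 lower. Summed linear levels ran over the tested genes of each list, so genes that passed through mutant arrays alone favoured a higher sum in mutant. The sums are therefore no support separate from the calls. They did not overlap for platelets (410 to 1180 in wild type, 1860 to 2930 in mutant), neutrophils (642 to 2080 and 3540 to 11600), B cells (802 to 1370 and 2170 to 6280) and monocytes (334 to 429 and 885 to 1390). T cell genes overlapped, at 587 to 919 and 900 to 1970, and their 8 rises became 4 or 5 without any 1 wild-type array and 3 of 5 tested without mutant array 3, 4 or 5. The 5 monocyte rises became 3 when wild-type array 2 or 3, or any of mutant arrays 3 to 5, was left out. For scale, the heme synthesis list summed to 48600 to 52700 in wild type and 32500 to 35500 in mutant. That sum is carried by Alas2 and Isca1, with wild-type means of 14.80 and 13.62 log2 units.

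Few of these markers could be seen in wild type at all, so their wild-type levels are mostly upper limits. Of the 14 defining T cell markers with a probe 1 was above background on some wild-type array and 9 on some mutant array, and for B cells these counts were 4 and 11 of 12, for neutrophils 3 and 9 of 14, for platelets 3 and 8 of 11, and for monocytes and macrophages 0 and 2 of 7. These counts run over 3 wild-type and 5 mutant arrays, on which a mean of 3.46% and 9.89% of all probes were above background. They are therefore not like for like between the genotypes. Of these defining markers 8 of B cells, 6 each of neutrophils and platelets and 5 of T cells were called higher, but 0 of monocytes and macrophages. S100a8, a neutrophil calcium-binding protein, was the exception with signal on all 8 arrays, at 9.85, 7.75 and 8.98 in wild type and 10.42, 11.32, 12.00, 11.24 and 12.54 in mutant. Its groups did not overlap, and it was 2.64 ± 0.41 higher (adjusted p = 6.3e-05). The platelet chemokine Pf4 was at least 2.05-fold higher and the platelet receptor chain Gp1bb at least 1.26-fold. The antigen-presentation genes Cd74 and H2-Ab1 were 3.16 ± 0.49 and 3.33 ± 0.46 higher, and Fcmr, the IgM receptor of B cells, 3.56 ± 0.55 higher, each above background on 1 of 3 wild-type arrays. Their fitted sizes too rest partly on wild-type values not above background. Ms4a1 of B cells, Cd4, Cd8a and Cd5 of T cells, Mpo and Elane of immature neutrophils and Cd14 of monocytes were above background on no array.

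Lysosomal and protein targeting genes were also called mostly higher, where 35.9% of all tested genes were higher and 8.12% lower. Of 20 lysosomal genes, 13 were higher and 0 lower (median 1.16), with Laptm5, a lysosomal protein of hematopoietic cells, 2.47 ± 0.35 higher on 8 arrays above background, the protease Ctsb 0.89 ± 0.17 higher and the saposin precursor Psap 2.96 ± 0.57 higher. Psap was 1.18 without wild-type arrays 2 and 3 (adjusted p = 0.17). Of 10 genes of the signal recognition particle and translocation, 7 were higher and 0 lower (median 1.35), but 9 of the 10 were above background on no wild-type array, and without the filter 3 of 26 were higher and 1 lower. For the lysosomal list, with 10 of 20 on no wild-type array, 6 of 30 were higher without the filter and 0 lower. The lysosomal rises became 7 or 8 without wild-type array 2 or 3 and 6 or 7 of 13 tested without mutant array 3, 4 or 5. Those of the targeting list became 3 without wild-type array 2 and 4 of 7 tested without mutant array 3, 4 or 5. The part of other blood cells in these rises, and in those of Tfrc, Odc1, Hspa8, Hnrnpm and Npm1, was not tested. With the share of probes above background as a covariate, where 213 of 2230 genes were called in all (151 higher), the higher calls were 6 of 10 platelet, 5 of 18 B cell, 2 of 12 neutrophil, 2 of 7 monocyte, 2 of 20 lysosomal and 0 of 13 T cell genes. The list medians under that covariate were 2.20 for platelet, 1.04 for B cell, 0.57 for neutrophil, 1.20 for monocyte, 0.55 for lysosomal and 0.29 for T cell genes, against 0.22 over all tested genes.

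The comparison was repeated on arrays it had not used, those of 12 and 24 h, which share no array with it, though whether they share animals is not stated in the labels. At 12 h, 3211 of 4177 tested genes (76.9%) differed, 57.9% of those tested being higher and 18.9% lower. All 800 genes that were higher at 0 h were tested there with the same probe, and 668 were higher again and 11 lower, which is 83.5% of the 0 h list and 27.6% of the later one. Of the 181 lower genes 105 were tested at 12 h, 92 were lower again and 6 higher. At 24 h 1828 of 2958 genes (61.8%) differed, 38.5% of those tested being higher and 23.3% lower. There, 512 of 776 tested were higher again and 26 lower, and 84 of 101 tested were lower again and 4 higher. Srp14, at least 11.6-fold higher at 0 h, had fitted differences of 5.63 and 3.51 log2 units at 12 and 24 h. Ncoa4 differed by -4.54, -4.94 and -2.69 at 0, 12 and 24 h, and Anp32e by -3.27, -4.44 and -4.18. Isca1 differed by -3.06, -2.68 and -1.49.

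**Figure D5:**
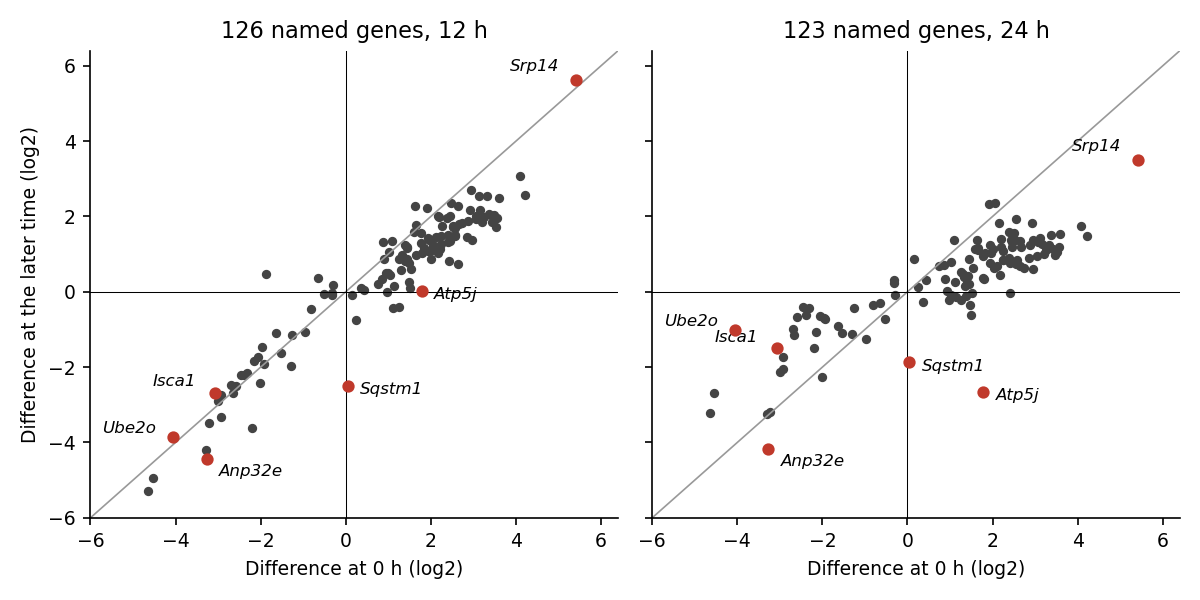
Difference between mutant and wild type at 12 h (left, 126 genes) and 24 h (right, 123 genes) against that at 0 h (both axes log2), for the named genes tested at both times, with a line of equality and 6 genes marked in red. Of these, 117 at 12 h and 109 at 24 h had the sign of the 0 h difference, and Atp5j and Sqstm1 lie apart, at -2.65 and -1.87 at 24 h. Differences at 0 h of genes seen in 1 genotype only, such as Srp14 and Atp5j, are fitted values against a group at background.

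The size of the genotype difference was compared between times directly. In 1 limma model of all 24 arrays, with 4846 genes tested, the genotype difference at 0 h differed from that at 12 h for 723 genes (14.9%), being more positive at 0 h for 560 (11.6%) and more negative for 163 (3.36%). Against 24 h the counts were 776 (16%), 546 (11.3%) and 230 (4.75%). Mr1, which presents vitamin metabolites to T cells, was lower in mutant at 0 h, at -3.14 in that model against 0.03 at 12 h and -0.01 at 24 h, and both contrasts passed (adjusted p = 7.4e-07 and 3.1e-07). Its later values were near the bottom of the scale in both genotypes (4.68 and 4.65 log2 units at 12 h, 4.38 and 4.39 at 24 h) and too rarely above background to be tested, so they do not show that the difference was gone. On the 0 h arrays alone Mr1 read 7.37, 8.51 and 7.73 in wild type, where it was at least 3.28-fold higher than in mutant. Bloc1s5, a subunit of a lysosome-related organelle complex, went from -2.62 at 0 h to 0.40 at 12 h (adjusted p = 8.9e-07). Its 12 h levels too were near the bottom of the scale, at 5.21 in mutant and 4.75 in wild type. The 12 h arrays alone gave 0.46 (limma adjusted p = 0.0027), and at 24 h it was not tested. Values this dim do not show whether the 0 h difference was gone. The fall of Ube2o was larger at 0 h by -2.88 than at 24 h (adjusted p = 3.1e-07), and the rise of Eif5 larger by 1.62 (adjusted p = 2.7e-07).

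Conversely, Snx3, an endosomal sorting protein, and the phosphatase Cdc25b did not pass detection on the 0 h arrays, where that model gave 0.14 and -0.43, and differed by -2.13 and -2.70 at 12 h. Atp5j, a subunit of ATP synthase above background on no wild-type array at 0 h, was fitted at 2.24 at 0 h and -2.18 at 24 h, a contrast of 4.42 (adjusted p = 1.1e-07). These 24-array values share 1 estimate of the spread, although the 0 h arrays varied more than the later ones. With the spread estimated per group, 406 genes differed between 0 and 12 h and 427 between 0 and 24 h.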

How the data were processed

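Total RNA was amplified, biotin-labelled and hybridised to Illumina mouse bead arrays, per the labels' protocols. The authors deposited raw intensity for every probe with no background taken off and no normalization, together with a detection p-value that moves in steps of 1 in 798, and bead numbers and errors. On each array the authors' processed values, also on an intensity scale, follow the raw ones along a straight line (largest residual 0.0145). Software and genome build are not given in the sources used here. For the middle time the authors' key has 15 h and the labels 12 h, which is used here. Of 25697 probes, 23978 carried 1 gene name, 0 several and 1719 none, and 23971 matched RefSeq (8 names updated).

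The 8 arrays of 0 h were background-corrected with normexp on detection p-values, given an offset of 16 and quantile-normalized to log2 values in limma 3.58.1 (R 4.3.3). Probes with a detection p below 0.01 on at least 3 of the 8 arrays were kept, 2694 in all, of which 169 had no name (68 higher, 12 lower). The probe with the highest mean stood for each of 2230 genes. Of 244 genes with several probes 40 had probes of opposite sign. Group means were fitted with an intensity trend, and Benjamini-Hochberg adjustment was over all tested genes at 0.05. Each of 12 and 24 h was treated alike, and contrasts between times came from 1 model of all arrays. Differences are mutant minus wild type ± SE, and array measures were compared by exact two-sided permutation. The method was tested on simulated data.

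Genes named are the 12 largest rises and falls, the 8 with the smallest p among those above background on all 8 arrays, up to 4 members per list, 18 chosen by name and 6 per contrast between times, not all of which are described. Members, lists and tests were chosen with earlier results of these data known. Same-numbered wild-type and mutant arrays deviated with correlations of -0.205, -0.00208 and -0.148, so replicate numbers were not treated as pairs. Medians of 38 to 40 beads lay behind each value, and the number of arrays, most of all the 3 wild-type arrays, limits the precision. Python 3.11.15 and matplotlib 3.10.9 served for the tables and figures.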

Additional observations from a re-analysis of the deposited data

Results flagged for a closer look

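Single mutant arrays stood apart for 14 of 130 named genes checked in the group of 5, where chance marks about 1 in 20, and 11 of these were mutant array 1, the mutant array with the lowest yield (3.60%). On that array Adipor1 read 10.09 log2 units (nearest other mutant array 9.83), Cat 10.8 (8.46), Slc25a38 8.672 (7.78), Rpl41 14.54 (14.31) and Gpx1 14.24 (14.16), all high. It was low for Hnrnpab at 5.757 (7.87), Ndufs7 5.027 (6.52), Ssr3 5.653 (6.75), Cct4 6.136 (7.16), Sec11a 5.513 (6.60) and Fcmr 8.33 (9.69). Mutant array 5 read 15.09 for Fth1 (14.89), and mutant array 4 read 13.53 for Oaz1 (13.47) and 13.92 for Rpl23 (14.02). For Fth1, Gpx1, Oaz1 and Rpl23 the other 4 arrays tie at 1 value of the shared quantile scale, so these marks rest on steps of that scale.

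The genotype difference at 0 h minus that at 12 h, tested as an interaction in limma, was 2.27 for Snx3, -3.173 for Mr1, -3.021 for Bloc1s5, -2.09 for the meiotic cohesin Rec8, 2.038 for the splicing regulator Ptbp3 and 2.264 for Cdc25b (adjusted p from 8.92e-09 to 7.58e-06). Against 24 h it was -1.35 for Ubb-ps, 2.187 for Ubl4a, 4.421 for Atp5j, 1.617 for Eif5, -3.129 for Mr1 and -2.875 for Ube2o (adjusted p from 2.42e-08 to 3.1e-07). Snx3, Ptbp3, Cdc25b and Ubl4a were not tested on the 0 h arrays alone. Mr1, Bloc1s5 and Rec8 were near the bottom of the scale in both genotypes at 12 h (4.62 to 5.21 log2 units), and Mr1 and Rec8 were not tested on those arrays alone.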

How the results depend on the processing

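The count of 981 genes (800 higher, 181 lower) rested on the choice of arrays and genes more than on the background correction. Leaving out 1 array at a time gave 546 to 1358 genes and a median difference of 0.41 to 0.91. It was 570 without wild-type array 2, 615 without wild-type array 3, and 546, 547 and 552 without mutant arrays 3, 4 and 5, where fewer genes also passed the filter. Without wild-type arrays 2 and 3 together 265 passed (155 higher, 110 lower). The high-background arrays alone gave 98 (35 and 63) and a median of -0.12, the low-background arrays 1673 (1328 and 345) and 1.22, array weights 1675 and 1.02, and yield as a covariate 213 and 0.22. Without a filter 409 passed (median -0.032), with detection on all 8 arrays 130 (-0.35), with detection on the 3 wild-type arrays 177 (-0.95), and with 24 arrays in 1 fit 2052 (0.23). The median was 0.33 without background correction, 1.31 under median centring, 0.36 with the authors' values, 0.16 with a filter by mean level and 0.35 at a detection p under 0.05, where the difference in yield was 9.42 points (exact permutation p = 0.0357). Replicate numbers were not treated as pairs, a choice that rests on few correlations and does not show that the samples are unpaired. With the replicate block 262 genes passed at 0 h (196 and 66), 929 at 24 h, and the differences in yield (3.35 points) and raw median (-0.018), not called without it, did not pass either (exact sign-flip permutation over 3 pairs, p = 0.5 and 1). The contrast with 12 h gave 406 genes with the spread per group and 1184 without a filter, that with 24 h 427 with the spread per group and 444 with the authors' values, and 12 h alone 5466 without a filter.

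Signs turned under median centring for Apaf1 (0.50), Bag1 (0.29), Bnip3l (0.30), Fech (0.028), Hbb-bt (0.23), Lmo2 (0.85) and Slc4a1 (0.63), and with the authors' values for Bag1 (0.030), Bnip3l (0.084), Lmo2 (0.11) and Slc4a1 (0.36). Slc4a1 also turned on the high-background arrays (0.19) and with yield as a covariate (0.25). Sqstm1, not called, turned in 1 fit of 24 arrays (-0.039), with the background class as a block (-0.38), on the low-background arrays (-0.87), with yield (-1.21), with the replicate block (-0.37), without wild-type arrays 2 and 3 (-1.48), and without any 1 of 5 single arrays (range of all leave-outs -0.50 to 0.76). Cat turned with array weights (-0.19), on the low-background arrays (-0.86), without wild-type arrays 2 and 3 (-0.36) and without wild-type array 3 or mutant array 1 (-0.40 and -0.36, range of all leave-outs -0.40 to 0.44). On the low-background arrays and without wild-type arrays 2 and 3, Bcl2l1 turned (-0.18 and -0.0088), as did Ulk1 (-1.14 and -0.54, and -0.38 without wild-type array 2, range of all leave-outs -0.38 to 0.62). The causes were not tested.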

Other observations

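Receptors of the nose and the vomeronasal organ, genes known from sensory neurons, appeared among the genes above background. This group was chosen after its values were seen. Of 22 odorant and pheromone receptor genes tested at 0 h, 10 were lower in mutant and 0 higher (limma, adjusted p below 0.05), where 8.12% of all tested genes were lower and 35.9% higher, with a median difference of -0.91 against 0.73 over all tested genes. They made up 5.53% of the 181 lower genes. For 6 of the 10 the probe was above background on all wild-type arrays, for 4 on all 8 arrays, and for 6 the groups did not overlap. The comparison with all tested genes is not like for like. Those include 1318 genes above background on no wild-type array, of which 0 were lower, and only Olfr1309 of the receptors was among them. Of the 237 tested genes above background on all 3 wild-type arrays 122 were lower (median -0.95), and of the 196 on 2 of them 55 (median -0.87).

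Olfr361 read 9.20, 9.34 and 9.49 log2 units in wild type and 7.66, 7.41, 6.81, 7.13 and 6.72 in mutant, a fall of -2.20 ± 0.40 (SE, limma adjusted p = 0.00033). Olfr1137 (-2.06 ± 0.41), Olfr1184 (-1.87 ± 0.39) and Olfr770 (-1.83 ± 0.38) were also above background on all 8 arrays. All 10 differed in the same direction within the high-background and the low-background arrays. These classes divide the same 8 arrays that gave the calls, so that agreement adds no support to them. The 5 receptors that were tested later were lower again at 12 and at 24 h. Olfr361, for instance, differed by -2.14 and -1.21. Whether these probes report the named genes was not tested.

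Cell cycle genes moved in both directions, where 35.9% of all tested genes were higher and 8.12% lower. Mcm5, a subunit of the replicative helicase that was above background on all 8 arrays, fell by 1.64 (SE 0.26), and Cenpa, the centromeric histone, was at least 1.63-fold higher and above background only in mutant. Of 10 tested cell cycle genes 4 were higher and 3 lower (median -0.12, and 0.74 under median centring, where Mcm5 was at -0.31 and did not pass).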
